A study of Mus musculus with 12 samples.

Results

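Bone marrow stem and progenitor cells of mice that lack Tet2 and carry an internal tandem duplication in Flt3 were compared with the same cells of wild-type mice. The comparison used 6 of the 12 RNA-seq libraries of the series, chosen by their sample titles: 3 libraries of LSK cells from Tet2-/-Flt3ITD mice, called T2F3 1 to T2F3 3 below, and 3 of LSK cells from wild-type mice, called WT 1 to WT 3. The other 6 libraries are granulocyte-macrophage progenitors (GMP) of the same genotypes. They entered the model for its estimate of spread, and served once to set the genotype effect in LSK against that in GMP. All donors were C57BL/6 mice aged 0.35 years, and the wild-type mice carried neither allele. LSK cells were sorted from lineage-depleted marrow of femur and tibia and lysed directly, and total RNA was depleted of ribosomal RNA before Ion Torrent sequencing. The labels give neither the zygosity of Flt3ITD nor how the alleles were built. A group with 1 of the alleles was not analysed here, so the effects of Tet2 loss and of Flt3ITD cannot be told apart. The labels do not say that libraries of a group came from separate mice, and p-values then measure the spread between libraries, which may be technical.

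FLT3 is a receptor tyrosine kinase of early progenitors, and an internal tandem duplication near its membrane makes it signal without ligand, in leukaemic cells mainly through STAT5, RAS-MAPK and PI3K-AKT. STAT5 enters the nucleus, binds gene control regions and switches on genes that include its own inhibitors of the SOCS family. TET2 oxidises methylated cytosine, a step towards removal of the methyl mark, and its loss gives stem cells a growth advantage in mouse marrow. LSK cells are lineage-negative, c-Kit-positive and Sca-1-positive marrow cells that hold the stem cells and multipotent progenitors.

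Tet2 itself was measured at 88.95, 79.8 and 78.96 CPM in WT against 42.01, 89.1 and 40.9 CPM in T2F3 (log2 fold -0.53 ± 0.28, adjusted p = 0.306). T2F3 2 lay at the WT level and the groups overlapped. The count covers the whole gene, which can keep transcript outside a deleted part, so it does not check the labels. Flt3 measured 433, 374 and 463 CPM in WT against 257, 329.6 and 188 CPM in T2F3 (log2 fold -0.71 ± 0.41, adjusted p = 0.349), below WT in all 3 T2F3 libraries without passing the test. Kit, the receptor of stem cell factor and an antigen of the sort, measured 1003, 882 and 764 CPM in WT against 243, 301 and 256 CPM in T2F3 (log2 fold -1.73 ± 0.21, adjusted p = 0.0015). Every T2F3 library lay far below the lowest WT library. Ly6a, which encodes Sca-1, measured 26.8, 17.9 and 23.9 CPM in WT LSK and 46.6, 24.7 and 11.3 CPM in T2F3 LSK, and the groups overlapped. In the WT GMP libraries Ly6a was at 3.57, 1.52 and 1.57 CPM, below each LSK library. The sort protocol in the labels writes Sca-1 as negative for both populations.

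Each LSK library held 13316474 to 21365867 counts. WT 1 and T2F3 1 were the libraries least like the others of their group, with correlations of log2 CPM across genes of 0.891 and 0.883 for WT 1, against 0.9498 between WT 2 and WT 3. For T2F3 1 the correlations were 0.939 and 0.929, against 0.949 between T2F3 2 and T2F3 3. Small RNA genes took 21.95%, 14.38% and 17.54% of the counts in WT 1 to WT 3 and 20.67%, 11.62% and 8.22% in T2F3 1 to T2F3 3. The difference between genotypes also ran with transcript length and GC content. The median log2 difference went from 0.31 in the shortest to -0.15 in the longest of 5 equal groups of genes by transcript length, and from 0.23 in the lowest to -0.20 in the highest of 5 groups by GC. By length the libraries differed, as their median deviations from the mean of the 6 libraries show. From shortest to longest these ran from 0.34 to -0.32 in T2F3 1, -0.05 to 0.08 in T2F3 2 and 0.046 to 0.0017 in T2F3 3. In WT 1 to WT 3 they ran from -0.32 to 0.14, -0.13 to 0.10 and 0.07 to 0.05. A second fit therefore held length and GC as offsets, and its values stand beside a part of the results below. A result printed without such a value may also have changed in that fit.

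Markers of other cells moved with genotype in both directions. Summed over 19 erythroid genes, WT libraries held 1009, 603 and 674 CPM and T2F3 libraries 76.0, 56.7 and 122 CPM, and 12 of the 17 tested fell. The 16 megakaryocyte and platelet genes summed to 565, 579 and 547 CPM against 214, 211 and 237 CPM, and 15 mast cell, basophil and eosinophil genes to 187, 257 and 249 CPM against 56.4, 45.2 and 78.2 CPM. The 18 stem cell genes summed to 1130, 838 and 707 CPM against 242, 320 and 293 CPM, and 13 stromal and endothelial genes to 368.5, 314 and 290.0 CPM against 137, 154 and 203 CPM. These 5 sums were lower in every T2F3 library than in any WT library, and of the 10 stromal and endothelial genes tested 2 fell and 1 rose. Of the 13 mast cell, basophil and eosinophil genes tested 4 fell and 1 rose. Monocyte and macrophage genes summed to 261, 247 and 250 CPM in WT and to 940, 964 and 268 CPM in T2F3, and of 15 tested 6 rose and 1 fell. Dendritic cell genes other than Flt3 summed to 1329, 1125 and 1165 CPM in WT and to 2784, 3982 and 1231 CPM in T2F3, and 4 of 16 rose. For both myeloid sums T2F3 3 lay near the WT libraries while T2F3 1 and T2F3 2 stood apart. Single members differed from the sums. Of 15 tested monocyte genes 6 were higher in every T2F3 library than in any WT library, and 2 were lower. Of 17 tested dendritic genes, with Flt3, 6 were higher in this way and 3 were lower. Neutrophil genes, at 72.8 to 339 CPM, and T and NK cell genes, at 29.8 to 50.4 CPM, overlapped between genotypes. B cell and plasma cell genes summed to 2675 CPM in WT 1 and to between 147 and 534 CPM in the other 5 libraries. In sorted bulk cells, a change in the share of a cell type and a change in RNA per cell cannot be told apart. The part of these lists in the results below was not tested.

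**Figure D1:**
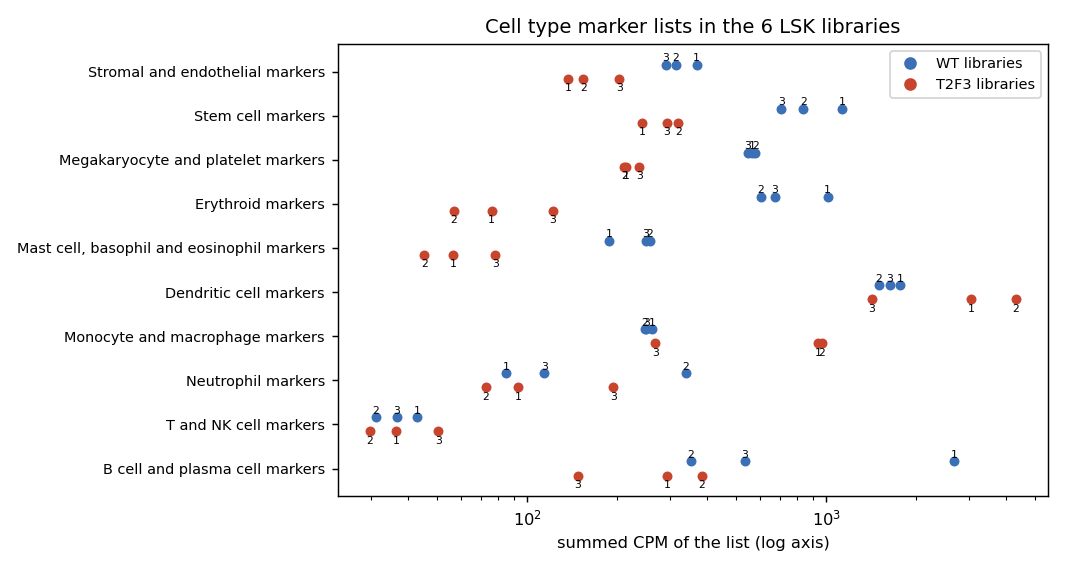
Summed CPM (log axis) of the 10 cell type marker lists in each LSK library, WT in blue and T2F3 in red, with the replicate number beside each point. Erythroid, megakaryocyte, mast cell and stem cell sums were lower in all 3 T2F3 libraries. Dendritic and monocyte sums were raised in T2F3 1 and T2F3 2 and lay near WT in T2F3 3.

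Of 16042 genes tested with edgeR's quasi-likelihood test, 834 (5.2%) passed a Benjamini-Hochberg adjusted p of 0.05. Of these, 443 rose in T2F3 (2.76% of genes tested) and 391 fell (2.44%), and in 824 of the 834 the WT and T2F3 libraries did not overlap. Over all genes tested 27.9% did not overlap. Counts of called list members below are to be read beside the shares of 2.76% higher and 2.44% lower. The lists and their members were chosen with earlier results of these data known, so a larger share in a list is a description and not a test. The median log2 difference over all genes was 0.05. From only the 6 LSK libraries, without the GMP libraries in the estimate of spread, 474 genes were called. The number called leaned on single libraries, falling to 326, 298 and 533 without WT 1, WT 2 and WT 3, to 229 and 400 without T2F3 1 and T2F3 2, and to 553 without T2F3 GMP 2. A core of 177 genes, 103 higher and 74 lower, was called the same way without each of the 12 libraries in turn, and 166 of them also with length and GC as offsets. Of all 834 called genes 487 were also called with the offsets. Without T2F3 1 and T2F3 GMP 1 together 121 of the 177 stayed called, and without WT 1 and WT GMP 1 together all 177. From only the 6 LSK libraries 167 of the 177 were called. A gene described below as having risen or fallen belongs to these 177 unless the adjusted p without a library is printed with it. The descriptions of the libraries carry codes whose meaning the labels do not state, and WT 1 and T2F3 2 alone share a code across genotypes in LSK. With the code as a term of the model 18 genes were called, among them Socs2, Enah, Ccn3, Ifitm1, Cers6, Sema4a, Casp1, Gata2 and Zfpm1. Of the 177 core genes 16 kept their call in this fit. In that fit no pathway list described below kept more than 2 called genes.

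**Figure D2:**
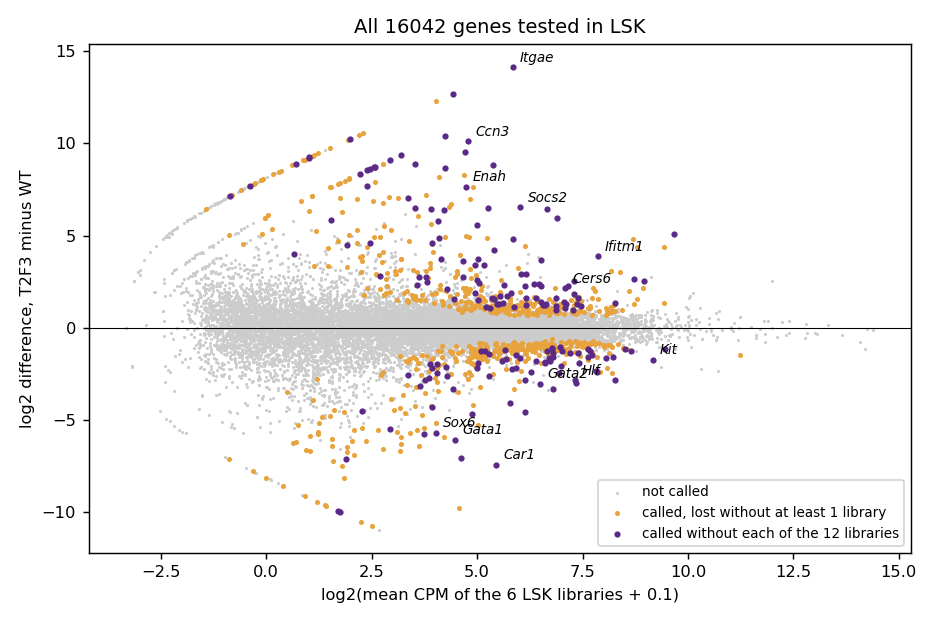
Log2 difference of T2F3 minus WT LSK against mean CPM (log2 with 0.1 added) for all 16042 genes tested. Purple points are the 177 genes called without each library in turn, orange points the other called genes and grey points the rest, and called genes lie on both sides of 0 over the whole range of expression.

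**Figure D3:**
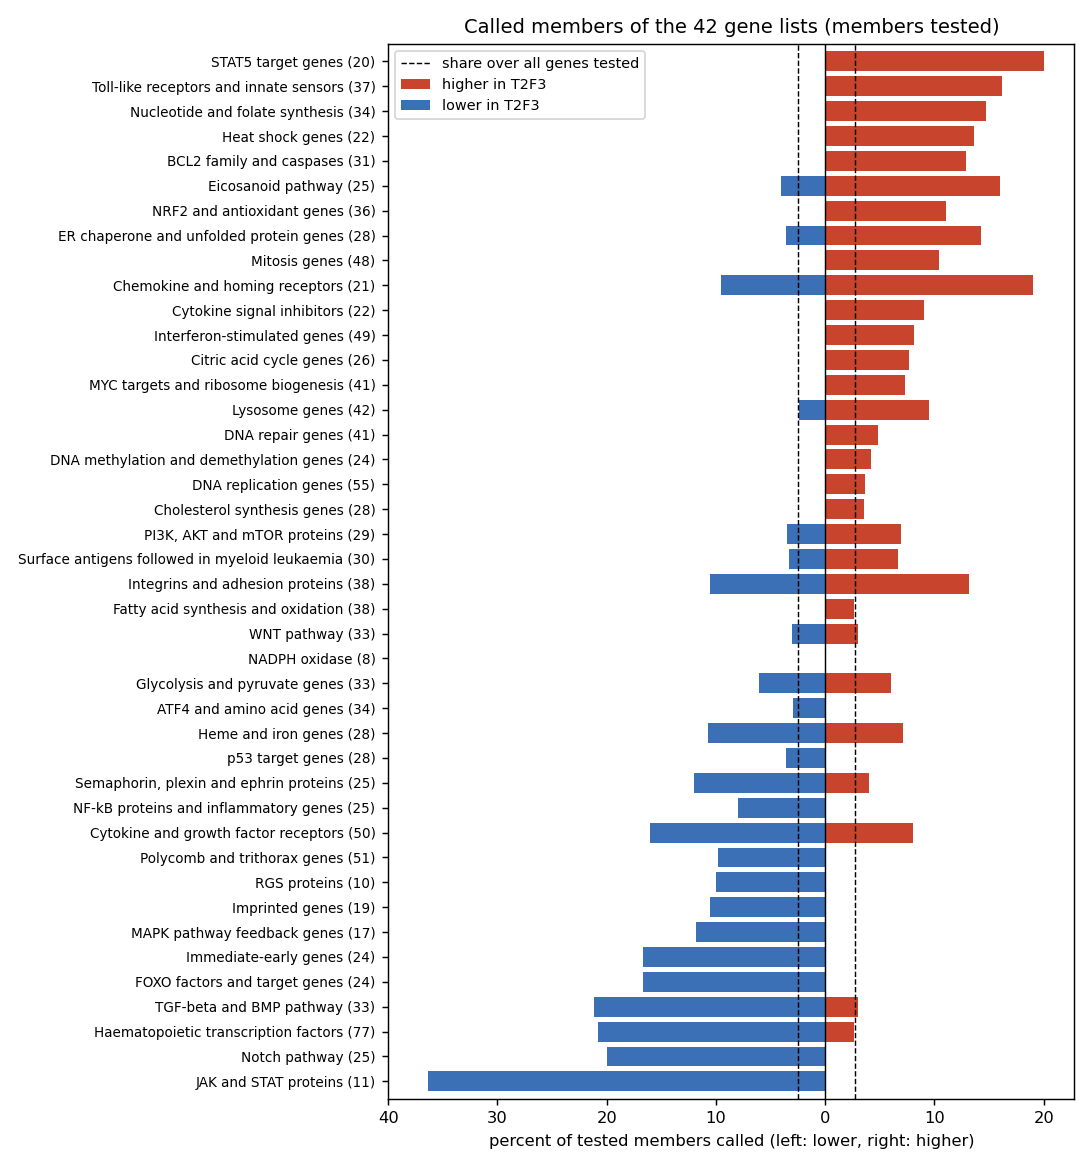
Percent of the tested members of each of 42 gene lists that were called higher (right) or lower (left) in T2F3 LSK, with the number tested in brackets and the shares over all genes (2.76% and 2.44%) as dashed lines. JAK and STAT, Notch, TGF-beta and transcription factor genes lean to the left, and STAT5 targets, innate sensors and nucleotide synthesis genes to the right.

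Socs2, Cish, Il2ra and Pim2 rose among the genes that STAT5 induces, and Jak3, Stat5a, Stat5b and Stat3 fell among the genes for JAK and STAT proteins, while the other members of both lists did not pass. Socs2, an inhibitor of cytokine receptors that STAT5 induces, measured 1.58, 1.57 and 0.961 CPM in WT against 113, 127 and 147 CPM in T2F3 (log2 fold 6.54 ± 0.38, adjusted p = 4.21e-06). The WT libraries lay near the floor and all 3 T2F3 libraries stood far above them. Cish, a second inhibitor induced by STAT5, measured 10.6, 19.2 and 17.3 CPM in WT against 86.4, 109 and 153 CPM in T2F3 (log2 fold 2.89 ± 0.34, adjusted p = 0.00117). Il2ra, the alpha chain of the interleukin-2 receptor and a STAT5 target in lymphoid cells, measured 0.132, 0.84 and 0 CPM in WT against 12.99, 16.2 and 59.2 CPM in T2F3 (log2 fold 6.41 ± 1.09, adjusted p = 0.00785). T2F3 3 held the highest level, and neither gene overlapped between genotypes. Pim2, a survival kinase downstream of STAT5, measured 24.5, 21.1 and 14.2 CPM in WT against 59.2, 34.8 and 102 CPM in T2F3 (log2 fold 1.72 ± 0.42, adjusted p = 0.0374), and its call was lost in some leave-outs (call lost in 6 of 12 leave-outs, adjusted p up to 0.146 without T2F3 3). These were the 4 of 20 tested STAT5 target genes that rose (20% against 2.76% of all genes called higher), with a list median of 0.15 (0.04 without T2F3 2 and 0.33 without T2F3 3). Among 22 tested inhibitors of cytokine signals, Socs2 and Cish rose and the other 20 did not pass. Ptpn2, a phosphatase of JAK proteins, came next at 6.46, 12.2 and 12.6 CPM in WT and 20.3, 18.1 and 21.8 CPM in T2F3 (log2 fold 0.94, adjusted p = 0.112).

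The start of Cish is shown because it holds a tandem STAT5-type motif. In the RefSeq promoter table (GRCm38.p6, from 250 bases before to 50 after the start), the Cish window on chromosome 9 (+ strand) was the 1 of 3 matched windows of these genes with TTCNNNGAA, a palindrome that reads alike on both strands. The windows of Il2ra and Pim2 did not hold these letters. Socs2 has no window in that RefSeq set, so its promoter was not searched. The capitals mark the 2 motif copies in 30 bases at chr9:107296654-107296683, 5′ to 3′, the first beginning at the start base itself and the second 11 bases further:

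Cish: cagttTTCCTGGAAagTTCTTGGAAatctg

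The motif occurs in 8.3% of all 32851 windows of that length, and in at least 1 window of 9.55% of genes, and a match is a description of the letters and not of binding.

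Jak3, the kinase of receptors that share the common gamma chain, fell and measured 377, 244 and 182 CPM in WT against 64.5, 72.4 and 78.5 CPM in T2F3 (log2 fold -1.90 ± 0.26, adjusted p = 0.00272). Stat5a, 1 of the paired genes for STAT5, measured 293, 276 and 218 CPM in WT against 118, 134 and 136 CPM in T2F3 (log2 fold -1.02 ± 0.19, adjusted p = 0.0134). Stat5b, the other, measured 423, 313 and 347 CPM in WT against 206, 195 and 169 CPM in T2F3 (log2 fold -0.93 ± 0.22, adjusted p = 0.0305). All 3 were lower in every T2F3 library than in any WT library, and Jak3 kept its call without each library. The call of Stat5a was lost in 2 leave-outs (adjusted p from 0.0509 to 0.0623 without WT 2 or T2F3 1) and that of Stat5b in 7 (call lost in 7 of 12 leave-outs, adjusted p up to 0.0989 without WT 1). Stat3 held 185 to 203 CPM in WT against 99.4 to 123 CPM in T2F3 (log2 fold -0.84, adjusted p = 0.0178), also without overlap, and lost its call in 3 leave-outs (adjusted p from 0.0578 to 0.0755 without WT 2, T2F3 1 or T2F3 3). Thus 4 of 11 tested JAK and STAT genes fell (36.4% against 2.44% over all genes), and the count was 1 without WT 2 or T2F3 1. With length and GC as offsets it was 2, and from only the 6 LSK libraries it was also 2.

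**Figure D4:**
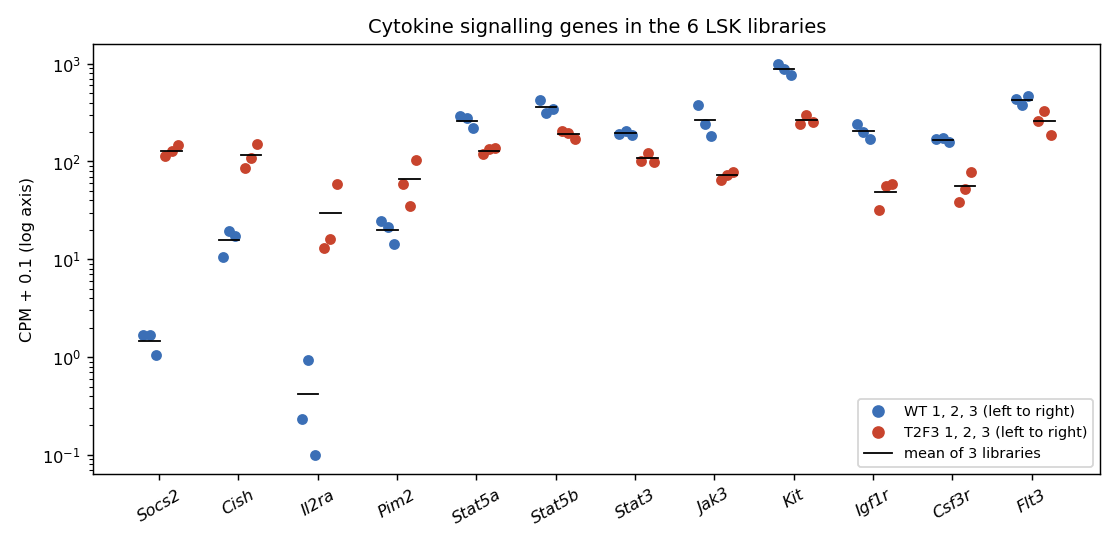
CPM (with 0.1 added, log axis) of 12 cytokine signalling genes in the 3 WT (blue) and 3 T2F3 (red) LSK libraries, with the mean of each group as a bar. Socs2, Cish, Il2ra and Pim2 lie higher in every T2F3 library, and Stat5a, Stat5b, Stat3, Jak3, Kit, Igf1r, Csf3r and Flt3 lie lower.

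Receptors for cytokines and growth factors changed in both directions, with 4 of 50 tested members higher and 8 lower. These are 8.0% and 16.0%, against 2.76% and 2.44% over all genes, and the count was 5 without T2F3 1. Igf1r, the receptor of insulin-like growth factor 1, measured 244, 202 and 169.8 CPM in WT against 31.7, 55.5 and 58.8 CPM in T2F3 (log2 fold -2.07 ± 0.26, adjusted p = 0.00154). Csf3r, the receptor of the granulocyte factor G-CSF, measured 169, 175 and 159 CPM in WT against 38.4, 52.2 and 78.7 CPM in T2F3 (log2 fold -1.57 ± 0.25, adjusted p = 0.00514). The WT libraries were close to each other for Csf3r, and T2F3 3 held the highest of the lowered levels. Epor, the erythropoietin receptor, measured 29.1, 11.98 and 12.8 CPM in WT against 0.3798, 0.292 and 0.206 CPM in T2F3 (log2 fold -5.94 ± 1.11, adjusted p = 0.0122) (adjusted p = 0.057 without T2F3 1). It was all but absent in T2F3, and it is itself a member of the erythroid list whose sum also fell. Met, the receptor of hepatocyte growth factor, rose and measured 17.4, 8.18 and 5.03 CPM in WT against 49.2, 85.8 and 31.3 CPM in T2F3 (log2 fold 2.44 ± 0.43, adjusted p = 0.00984), with T2F3 3 lowest of the raised libraries.

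Immediate-early genes respond within minutes to MAPK signals. Of 24 tested immediate-early genes 4 fell (16.7% against 2.44% over all genes), and 20 of the 24 had a negative log2 difference. The list median was -1.44 (-1.40 with length and GC as offsets), beside 0.05 over all genes. Ier2, a nuclear protein induced by growth factors, measured 357, 525 and 253 CPM in WT against 53.3, 98.4 and 72.7 CPM in T2F3 (log2 fold -2.34 ± 0.34, adjusted p = 0.00361). Jun, a subunit of the AP-1 factor, measured 326, 654 and 347 CPM in WT against 93.4, 144 and 59.96 CPM in T2F3 (log2 fold -2.16 ± 0.44, adjusted p = 0.0181). Fos, its partner, measured 346, 759 and 385 CPM in WT against 47.1, 173 and 48.2 CPM in T2F3 (log2 fold -2.47 ± 0.65, adjusted p = 0.0463). WT 2 held the highest level of each, and no T2F3 library reached the lowest WT library. Zfp36, which hastens the decay of short-lived messages, measured 331, 535 and 350.4 CPM in WT against 52.6, 127 and 46.3 CPM in T2F3 (log2 fold -2.42 ± 0.58, adjusted p = 0.033). Only Ier2 of these 4 kept its call throughout (Jun, adjusted p from 0.0522 to 0.0833 without WT 2, T2F3 1 or T2F3 3; Zfp36, call lost in 5 of 12 leave-outs, adjusted p up to 0.137 without T2F3 1; Fos, call lost in 9 of 12 leave-outs, adjusted p up to 0.169 without T2F3 1), and the list count was 1 without WT 2, T2F3 1 or T2F3 3.

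The 17 tested genes that MAPK signalling induces to restrain itself had a median of -1.42 (-1.46 with the offsets), and 16 of them had a negative difference. The call passed for 2 (11.8% against 2.44% over all genes). Dusp2, a phosphatase of MAP kinases in blood cells, measured 65.7, 119.6 and 101 CPM in WT against 19.8, 32.7 and 28.4 CPM in T2F3 (log2 fold -1.82 ± 0.40, adjusted p = 0.025) (call lost in 5 of 12 leave-outs, adjusted p up to 0.11 without T2F3 1). Spry1, an inhibitor of receptor tyrosine kinase signals, measured 18.001, 23.7 and 16.3 CPM in WT against 1.82, 3.25 and 7.202 CPM in T2F3 (log2 fold -2.23 ± 0.56, adjusted p = 0.0409) (call lost in 9 of 12 leave-outs, adjusted p up to 0.141 without T2F3 1). Both separated the genotypes, with T2F3 1 lowest in each case. Spred2, a relative of Spry1, did not pass at 149.6, 66.2 and 83.6 CPM against 14.7, 34.9 and 55.6 CPM (log2 fold -1.50, adjusted p = 0.0546). Among the WT libraries WT 2 had the highest level of Jun, Fos, Zfp36, Ier2 and Dusp2.

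FOXO factors are held out of the nucleus by AKT and otherwise maintain quiescence of stem cells. Of 24 tested FOXO genes and targets 4 fell (16.7% against 2.44% over all genes), and the list median was -0.69 (-0.52 with the offsets). Foxo3, the member needed for stem cell maintenance, measured 587, 474 and 440.2 CPM in WT against 177, 235 and 267 CPM in T2F3 (log2 fold -1.14 ± 0.20, adjusted p = 0.00978). Txnip, an inhibitor of thioredoxin and of glucose uptake, measured 583, 369 and 407 CPM in WT against 174, 140.0 and 133 CPM in T2F3 (log2 fold -1.60 ± 0.23, adjusted p = 0.00343). Neither gene overlapped between genotypes. Cdkn1b, the cell cycle inhibitor p27, held 79.1 to 99.2 CPM in WT against 42.7 to 50.7 CPM in T2F3 (log2 fold -0.90, adjusted p = 0.0205, call lost in 4 of 12 leave-outs, adjusted p up to 0.082 without T2F3 1). Foxo1 held 24.3 to 50.6 CPM in WT against 10.4 to 17.4 CPM in T2F3 (log2 fold -1.38, adjusted p = 0.0446, call lost in 10 of 12 leave-outs, adjusted p up to 0.161 without T2F3 1). The list kept 2 called genes without WT 2, T2F3 1 or T2F3 3. Of 29 tested PI3K, AKT and mTOR proteins, Pik3r5 and Pik3r6, regulatory subunits of the PI3K gamma that is activated by G protein-coupled receptors, rose. Pik3r5 measured 15.7, 17.02 and 13.4 CPM in WT against 48.5, 80.3 and 24.98 CPM in T2F3 (log2 fold 1.74 ± 0.39, adjusted p = 0.0264) (call lost in 5 of 12 leave-outs, adjusted p up to 0.0902 without T2F3 2). Pik3r6 measured 3.297, 2.18 and 1.996 CPM in WT against 14.1, 16.1 and 5.14 CPM in T2F3 (log2 fold 2.24 ± 0.47, adjusted p = 0.0196) (call lost in 4 of 12 leave-outs, adjusted p up to 0.0762 without WT 2). T2F3 3 was the lowest of the raised libraries for both, as it was for the dendritic marker sum. Phlpp1, a phosphatase that switches AKT off, held 42.3 to 47.5 CPM in WT against 18.5 to 24.3 CPM in T2F3 (log2 fold -1.12, adjusted p = 0.033, call lost in 6 of 12 leave-outs, adjusted p up to 0.124 without T2F3 1). The median of this list was 0.01 (-0.10 without WT 1 and 0.08 without T2F3 1), with 15 members above 0 and 14 below. Of its members 6.9% were called higher and 3.45% lower, beside 2.76% and 2.44% over all genes. From only the 6 LSK libraries 0 were called higher and 1 lower.

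Gata2, Zfpm1, Gata1, Hlf, Nfia and Sox6 fell among the transcription factors of blood cells. Of 77 tested haematopoietic factors 16 fell and 2 rose (20.8% and 2.6%, against 2.44% and 2.76% over all genes). Without overlap 38 were lower (13.3% over all genes), and the list median was -0.75 (-0.71 with the offsets). Gata2, a GATA factor needed for stem and mast cells, measured 146, 169 and 168 CPM in WT against 16.4, 13.9 and 28.5 CPM in T2F3 (log2 fold -3.04 ± 0.31, adjusted p = 0.000364). Zfpm1, the GATA partner FOG1, measured 318, 349 and 198 CPM in WT against 29.8, 31.5 and 48.4 CPM in T2F3 (log2 fold -2.98 ± 0.29, adjusted p = 0.000257). For both, every T2F3 library lay far below every WT library, with T2F3 3 the highest of the lowered libraries. Gata1, the erythroid and megakaryocytic GATA factor, measured 62.1, 26.6 and 41.9 CPM in WT against 0.608, 0.709 and 0.617 CPM in T2F3 (log2 fold -6.06 ± 0.87, adjusted p = 0.00343), with all T2F3 libraries under 1 CPM. Hlf, a factor of primitive stem cells, measured 358, 266 and 212 CPM in WT against 30.4, 33.4 and 52.8 CPM in T2F3 (log2 fold -2.84 ± 0.32, adjusted p = 0.000958). Nfia, a nuclear factor I protein active in erythroid commitment, measured 27.4, 22.3 and 34.7 CPM in WT against 2.58, 6.8 and 5.72 CPM in T2F3 (log2 fold -2.47 ± 0.45, adjusted p = 0.0112). Sox6, a factor of erythroid maturation, measured 40.9, 33.1 and 21.7 CPM in WT against 0.152, 1.08 and 0.535 CPM in T2F3 (log2 fold -5.69 ± 0.81, adjusted p = 0.00306). None of these 6 overlapped between genotypes. The other 10 lower factors lost their call in leave-outs, and they include factors known from lymphoid cells, of which Ebf1, a B cell factor named after its values were seen, held 1.33 to 13.8 CPM in WT against 0 to 0.167 CPM in T2F3 (log2 fold -6.01, adjusted p = 0.0451, call lost in 9 of 12 leave-outs, adjusted p up to 0.177 without WT 1). The count of 18 fell to 6 without WT 1. Gata1, Gata2, Hlf and Zfpm1 fell, as did the erythroid, mast cell, megakaryocyte and stem cell sums given above. Gata1 is a member of the erythroid list, Gata2 of the mast cell list and Hlf of the stem cell list. Each is thus part of the sum that it is set beside. Promoter windows were searched on both strands for the motif AGATAA, which the proteins of Gata1 and Gata2 bind. At least 1 RefSeq window held it in 2 (Nfia and Sox6) of the 14 called factors with a window, against 12.7% of all genes with a window and 11.2% of all windows.

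In the TGF-beta and BMP pathway 7 of 33 tested members fell, 1 rose and 25 did not pass. The shares were 21.2% lower and 3.03% higher, against 2.44% and 2.76% over all genes. The list median was -0.52 (-0.47 with the offsets). Leaving out single libraries took the median to -0.58 without T2F3 2 and -0.32 without T2F3 1. Acvr1b, the type I receptor of activin, measured 168, 122 and 101 CPM in WT against 32.97, 36.3 and 44.1 CPM in T2F3 (log2 fold -1.79 ± 0.23, adjusted p = 0.0017). Ltbp3, which binds latent TGF-beta in the matrix, measured 84.7, 78.1 and 63.9 CPM in WT against 18.1, 19.4 and 26.4 CPM in T2F3 (log2 fold -1.83 ± 0.26, adjusted p = 0.003). Both were lower in every T2F3 library, by similar amounts. Eng, the co-receptor endoglin of endothelial and stem cells, measured 145, 165 and 176 CPM in WT against 50.8, 76.3 and 75.8 CPM in T2F3 (log2 fold -1.26 ± 0.23, adjusted p = 0.0122) (adjusted p = 0.0566 without T2F3 1). Tgfbr2, the ligand-binding TGF-beta receptor, measured 75.1, 78.2 and 61.4 CPM in WT against 31.8, 37.7 and 31.9 CPM in T2F3 (log2 fold -1.08 ± 0.22, adjusted p = 0.0157) (adjusted p from 0.0502 to 0.0716 without WT 2, T2F3 1 or T2F3 3). Smad7, an inhibitor within the pathway, held 41.2 to 60.2 CPM in WT against 6.76 to 23.5 CPM in T2F3 (log2 fold -1.55, adjusted p = 0.0433, call lost in 9 of 12 leave-outs, adjusted p up to 0.123 without WT 1). None of these overlapped. Acvrl1, a receptor of BMP9 in endothelium, rose and measured 0.132, 0.448 and 0.518 CPM in WT against 22.4, 21.5 and 0.823 CPM in T2F3 (log2 fold 5.32 ± 1.11, adjusted p = 0.0187) (call lost in 5 of 12 leave-outs, adjusted p up to 0.0707 without T2F3 1). Its level was high in T2F3 1 and T2F3 2 and near WT in T2F3 3, and the cell source of this rise was not tested. The list count was 2 without T2F3 1.

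In the Notch pathway, in which a cleaved receptor turns on lymphoid and other genes, 5 of 25 tested members fell and the median was -0.37 (-0.29 with the offsets). Notch1, the receptor, measured 484, 319.9 and 416 CPM in WT against 108, 210.2 and 152 CPM in T2F3 (log2 fold -1.38 ± 0.27, adjusted p = 0.0159) (adjusted p from 0.0556 to 0.068 without WT 1 or T2F3 1). Maml1, a co-activator, measured 53.1, 54.04 and 41.6 CPM in WT against 19.1, 29.03 and 18.6 CPM in T2F3 (log2 fold -1.16 ± 0.23, adjusted p = 0.0153) (adjusted p from 0.0518 to 0.0722 without WT 2, T2F3 1 or T2F3 3). T2F3 2 was the highest of the lowered libraries for both. The sugar transferases Mfng and Rfng, which modify Notch, and Dtx3, a ubiquitin ligase, completed the 5. Mfng held 192 to 257 CPM in WT against 99.2 to 145 CPM in T2F3 (log2 fold -0.84, adjusted p = 0.0368, call lost in 8 of 12 leave-outs, adjusted p up to 0.113 without T2F3 2). Rfng held 33.6 to 48.9 CPM in WT against 14.2 to 22.1 CPM in T2F3 (log2 fold -1.12, adjusted p = 0.029, call lost in 5 of 12 leave-outs, adjusted p up to 0.0963 without T2F3 3). Dtx3 held 83.02 to 114 CPM in WT against 22.3 to 53.6 CPM in T2F3 (log2 fold -1.36, adjusted p = 0.0378, call lost in 8 of 12 leave-outs, adjusted p up to 0.123 without T2F3 1). The list held no gene of the 177, and its count was 0 without T2F3 1 and 1 from only the 6 LSK libraries. In the WNT pathway 1 of 33 tested members rose and 1 fell (3.03% each, near the 2.76% and 2.44% over all genes). The WNT median was -0.62 (-0.35 with the offsets). Wls, which carries WNT proteins to the cell surface, rose and measured 78.6, 59.98 and 70.5 CPM in WT against 329, 259 and 142 CPM in T2F3 (log2 fold 1.80 ± 0.28, adjusted p = 0.00505), with T2F3 3 closest to WT. Dvl1, a scaffold that relays WNT signals, held 39.6 to 46.4 CPM in WT against 20.8 to 26.2 CPM in T2F3 (log2 fold -0.85, adjusted p = 0.0308, call lost in 7 of 12 leave-outs, adjusted p up to 0.117 without T2F3 1).

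The higher genes with the smallest p include Enah, Sema4a, Ccn3, Gas7 and Stxbp6. Enah, an actin-binding protein that extends filaments, measured 0.264, 0.336 and 0.148 CPM in WT against 38.2, 45.6 and 73.95 CPM in T2F3 (log2 fold 7.66 ± 0.47, adjusted p = 5.25e-06). Sema4a, a semaphorin that acts on immune cells, measured 2.97, 4.2 and 6.28 CPM in WT against 52.9, 77.97 and 49.4 CPM in T2F3 (log2 fold 3.75 ± 0.35, adjusted p = 0.000184). Ccn3, a matricellular protein also known as NOV, measured 0.132, 0 and 0 CPM in WT against 53.3, 47.2 and 64.2 CPM in T2F3 (T2F3 to WT ratio 1286, 95% counting interval 356 to 10621, adjusted p = 3.94e-05). Enah and Ccn3 were near 0 in every WT library and well expressed in every T2F3 library. The 3 WT libraries held 2 counts of Ccn3 in all. Gas7, an adaptor of the actin cytoskeleton, measured 2.24, 4.98 and 4.07 CPM in WT against 41.9, 63.3 and 34.2 CPM in T2F3 (log2 fold 3.62 ± 0.35, adjusted p = 0.000255). Ncam2, a neural adhesion molecule, measured 0.0659, 0.056 and 0.148 CPM in WT against 24.8, 22.4 and 65.4 CPM in T2F3 (log2 fold 8.65 ± 0.81, adjusted p = 0.000536). Stxbp6, which binds proteins of vesicle fusion, measured 1.45, 1.06 and 1.11 CPM in WT against 19.3, 24.7 and 43.9 CPM in T2F3 (log2 fold 4.60 ± 0.40, adjusted p = 0.000111). Each of these 3 separated the genotypes, which the choice by smallest p required. T2F3 3 was the highest library for Ncam2 and Stxbp6 and the lowest of the raised ones for Gas7. In the list of semaphorins, plexins and ephrins Sema4a rose and 3 of 25 tested members fell. These are 4.0% and 12.0%, against 2.76% and 2.44% over all genes. The list median was -0.31, but 0.06 with length and GC as offsets. It was -0.62 without T2F3 2 and -0.12 without T2F3 1. Plxna1, a semaphorin receptor, held 29.9 to 37.1 CPM in WT against 10.6 to 10.9 CPM in T2F3 (log2 fold -1.65, adjusted p = 0.0191, call lost in 4 of 12 leave-outs, adjusted p up to 0.0818 without T2F3 1). Plxnc1, another, held 171 to 231 CPM in WT against 34.9 to 119.6 CPM in T2F3 (log2 fold -1.42, adjusted p = 0.0369, call lost in 7 of 12 leave-outs, adjusted p up to 0.132 without T2F3 1). Efnb1, an ephrin, held 10.5 to 31.6 CPM in WT against 4.44 to 6.08 CPM in T2F3 (log2 fold -1.91, adjusted p = 0.0322, call lost in 6 of 12 leave-outs, adjusted p up to 0.104 without WT 1). These 3 were below WT in all T2F3 libraries, and none was called with length and GC as offsets.

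Integrins changed in both directions. Itga2b, the megakaryocyte integrin CD41 that is also found on early progenitors, measured 98.97, 137 and 130.4 CPM in WT against 12.4, 11.9 and 26.95 CPM in T2F3 (log2 fold -2.84 ± 0.42, adjusted p = 0.00398). Itgam, the myeloid integrin Mac-1 and an antigen of the lineage depletion, measured 33.5, 23.02 and 18.4 CPM in WT against 3.87, 8.18 and 4.36 CPM in T2F3 (log2 fold -2.18 ± 0.38, adjusted p = 0.0086). Itgae, the alpha E chain found on dendritic and intraepithelial T cells, measured 0, 0 and 0 CPM in WT against 146, 185 and 14.3 CPM in T2F3 (at least 587-fold higher, adjusted p = 0.00361). The first pair fell in all T2F3 libraries, while Itgae was at 0 in every WT library. A fold against a group at 0 is a lower bound, computed against a floor of 3 counts per library, and a ratio against 1 to 3 counts is given with its counting interval. Vcam1 measured 7.06, 4.09 and 5.84 CPM in WT against 0.07597, 0.584 and 0.0412 CPM in T2F3 (log2 fold -4.47 ± 0.92, adjusted p = 0.0181) (adjusted p = 0.0835 without T2F3 1). Itga9 measured 23.9, 30.02 and 24.03 CPM in WT against 0, 0.918 and 0.823 CPM in T2F3 (log2 fold -5.41 ± 1.23, adjusted p = 0.0271) (call lost in 6 of 12 leave-outs, adjusted p up to 0.0833 without T2F3 1). Both binding partners, the second an integrin chain that recognises the first, were near 0 in T2F3. Itgb1, the chain shared by many integrins, rose and held 69.4 to 96.6 CPM in WT against 143 to 169.8 CPM in T2F3 (log2 fold 0.87, adjusted p = 0.0297, call lost in 7 of 12 leave-outs, adjusted p up to 0.0989 without WT 1). In all 5 of 38 tested members rose and 4 fell (13.2% and 10.5%, against 2.76% and 2.44% over all genes). The count was 3 without T2F3 1.

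Homing receptors rose in 4 and fell in 2 of 21 tested members. S1pr3, a receptor of sphingosine 1-phosphate, measured 55.7, 48.6 and 63.4 CPM in WT against 122, 138 and 136 CPM in T2F3 (log2 fold 1.24 ± 0.20, adjusted p = 0.00539), with each group tightly clustered. Xcr1, the chemokine receptor of cross-presenting dendritic cells, measured 0.264, 0 and 0.296 CPM in WT against 99.8, 142 and 8.11 CPM in T2F3 (log2 fold 8.84 ± 1.47, adjusted p = 0.00684). Ccr2, the receptor that draws monocytes from marrow, measured 0.462, 6.22 and 5.101 CPM in WT against 104, 213 and 15.1 CPM in T2F3 (log2 fold 4.81 ± 0.90, adjusted p = 0.0125). Cxcr3, a receptor of interferon-induced chemokines, measured 0, 0.28 and 0 CPM in WT against 13.2, 28.6 and 2.305 CPM in T2F3 (log2 fold 7.09 ± 1.39, adjusted p = 0.0153) (adjusted p = 0.0519 without T2F3 2). For Xcr1, Ccr2 and Cxcr3 the T2F3 3 library lay far below T2F3 1 and T2F3 2, as in the dendritic and monocyte sums, whereas S1pr3 did not differ in this way. Xcr1 is a member of the dendritic list and Ccr2 of the monocyte list, so both are part of those sums. Ccrl2, an atypical receptor for chemerin, fell and held 21.1 to 24.2 CPM in WT against 3.65 to 8.72 CPM in T2F3 (log2 fold -1.74, adjusted p = 0.0478, call lost in 10 of 12 leave-outs, adjusted p up to 0.164 without T2F3 1). Cxcr5, the receptor that leads cells into follicles, held 1.79 to 9.02 CPM in WT against 0 to 0.165 CPM in T2F3 (log2 fold -5.66, adjusted p = 0.0499, call lost in 11 of 12 leave-outs, adjusted p up to 0.168 without T2F3 1).

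Of 49 tested interferon-stimulated genes, 39 had a positive log2 difference, the median was 0.55 (0.36 with the offsets) and 4 rose (8.16% against 2.76% over all genes). Leaving out single libraries took the median to 0.29 without T2F3 2 and 0.92 without T2F3 3. Ifitm1, a membrane protein that blocks virus entry, measured 33.6, 25.3 and 30.5 CPM in WT against 498, 362 and 447 CPM in T2F3 (log2 fold 3.87 ± 0.32, adjusted p = 9.05e-05). Gbp7, a guanylate-binding protein of cell-autonomous defence, measured 37.6, 48.3 and 40.96 CPM in WT against 104, 154 and 124 CPM in T2F3 (log2 fold 1.59 ± 0.25, adjusted p = 0.00507). Gbp3, a relative, measured 5.08, 12.3 and 14.6 CPM in WT against 55.0002, 44.8 and 25.7 CPM in T2F3 (log2 fold 1.97 ± 0.40, adjusted p = 0.0181) (adjusted p from 0.0544 to 0.0774 without WT 2 or T2F3 1). Igtp, an immunity-related GTPase, measured 26.5, 24.8 and 29.1 CPM in WT against 88.2, 78.1 and 80.2 CPM in T2F3 (log2 fold 1.62 ± 0.37, adjusted p = 0.029) (call lost in 6 of 12 leave-outs, adjusted p up to 0.0985 without T2F3 1). Ifitm1 was far above the highest WT level in every T2F3 library, and Igtp and Gbp7 were even across T2F3. Without WT 2 or T2F3 1 the list held 2 called genes. Guanylate-binding proteins and immunity-related GTPases are families of similar genes, and reads shared between copies make single-gene values uncertain.

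Innate sensors rose in 6 of 37 tested members (16.2% against 2.76% over all genes), with a median of 0.71 (0.56 with the offsets). Casp1, the inflammasome protease, measured 27.2, 23.9 and 21.5 CPM in WT against 99.9, 130.4 and 121 CPM in T2F3 (log2 fold 2.28 ± 0.23, adjusted p = 0.000364), with each group within a narrow range. Tlr11, a sensor of profilin in mouse dendritic cells, measured 0.0659, 0 and 0.148 CPM in WT against 70.95, 82.3 and 4.07 CPM in T2F3 (T2F3 to WT ratio 759, 95% counting interval 259.6 to 3685, adjusted p = 0.00361). Tlr3, a sensor of double-stranded RNA in cross-presenting dendritic cells, measured 0.0659, 0.28 and 0.961 CPM in WT against 30.9, 83.8 and 5.02 CPM in T2F3 (log2 fold 6.54 ± 1.39, adjusted p = 0.0211) (call lost in 4 of 12 leave-outs, adjusted p up to 0.0836 without WT 2). Clec7a, the beta-glucan receptor, measured 0, 0.112 and 0.961 CPM in WT against 9.72, 11.7 and 3.37 CPM in T2F3 (log2 fold 4.59 ± 0.85, adjusted p = 0.0119) (adjusted p = 0.0528 without WT 2). Tlr11, Tlr3 and Clec7a were highest in T2F3 1 and T2F3 2 and lower in T2F3 3, as was the dendritic sum, while Casp1 was as high in T2F3 3. Tlr13, a sensor of bacterial ribosomal RNA, held 0 to 0.56 CPM in WT against 1.28 to 24.1 CPM in T2F3 (log2 fold 5.50, adjusted p = 0.0475, call lost in 10 of 12 leave-outs, adjusted p up to 0.121 without T2F3 1). Card9, an adaptor of fungal sensors, held 16.8 to 31.1 CPM in WT against 44.5 to 57.98 CPM in T2F3 (log2 fold 1.14, adjusted p = 0.0259, call lost in 4 of 12 leave-outs, adjusted p up to 0.0951 without WT 2). The list count was 3 without T2F3 1 or T2F3 2. Among 25 tested NF-kB proteins and inflammatory genes 2 fell (8.0% against 2.44% over all genes). Nfkbiz, a nuclear co-regulator of NF-kB, measured 46.6, 75.3 and 35.4 CPM in WT against 8.74, 14.1 and 11.7 CPM in T2F3 (log2 fold -2.19 ± 0.37, adjusted p = 0.00821). Ccl3, a chemokine that restrains stem cell division, measured 22.9, 47.5 and 35.3 CPM in WT against 5.01, 11.6 and 1.93 CPM in T2F3 (log2 fold -2.51 ± 0.57, adjusted p = 0.0271) (adjusted p from 0.0532 to 0.114 without WT 2, WT 3 or T2F3 1). WT 2 was the highest library for both, as for the immediate-early genes.

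Surface antigens followed in myeloid leukaemia rose for 2 of 30 tested members and fell for 1. These are 6.67% and 3.33%, against 2.76% and 2.44% over all genes. Clec12a, the lectin CLL-1 of leukaemic and myeloid cells, measured 31.8, 19.9 and 33.3 CPM in WT against 171, 160.4 and 114 CPM in T2F3 (log2 fold 2.39 ± 0.28, adjusted p = 0.0011). Cd48, a marker that separates multipotent progenitors from stem cells, measured 66.01, 86.4 and 93.2 CPM in WT against 289, 180.3 and 286 CPM in T2F3 (log2 fold 1.62 ± 0.23, adjusted p = 0.00343). Neither overlapped. Cd81, a tetraspanin, fell and held 119.8 to 144 CPM in WT against 53.2 to 84.5 CPM in T2F3 (log2 fold -0.86, adjusted p = 0.0401, call lost in 8 of 12 leave-outs, adjusted p up to 0.12 without T2F3 2). Enzymes of lipid mediators split: Ptgs1, the cyclooxygenase of platelets, measured 41.3, 29.2 and 29.4 CPM in WT against 3.87, 7.22 and 5.31 CPM in T2F3 (log2 fold -2.60 ± 0.43, adjusted p = 0.00689). Mgst1, a microsomal glutathione transferase, measured 1.85, 5.15 and 2.44 CPM in WT against 26.5, 20.2 and 17.04 CPM in T2F3 (log2 fold 2.74 ± 0.45, adjusted p = 0.00594). Ptgs1 was lower and Mgst1 higher in every T2F3 library. Lta4h, which makes leukotriene B4, rose and held 199 to 309 CPM in WT against 451 to 791 CPM in T2F3 (log2 fold 1.30, adjusted p = 0.0364, call lost in 6 of 12 leave-outs, adjusted p up to 0.131 without T2F3 1). Ptgdr2 held 0 to 0.0739 CPM in WT against 0.576 to 13.3 CPM in T2F3 (T2F3 to WT ratio 302, 95% counting interval 53.9 to 11970.3, adjusted p = 0.0289, call lost in 5 of 12 leave-outs, adjusted p up to 0.0995 without WT 2). Cysltr1 held 0 to 0.462 CPM in WT against 3.004 to 9.14 CPM in T2F3 (log2 fold 4.68, adjusted p = 0.0437, call lost in 11 of 12 leave-outs, adjusted p up to 0.125 without WT 2). These last are receptors of prostaglandin D2 and of cysteinyl leukotrienes, both near 0 in WT. In all 4 of 25 tested eicosanoid genes rose and 1 fell (16.0% and 4.0%, against 2.76% and 2.44% over all genes). The count was 2 without WT 1, WT 2, WT 3 or T2F3 1.

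Of 48 tested mitosis genes 25 were higher in every T2F3 library (14.7% over all genes), the median was 0.40, and 5 rose (10.4% against 2.76% over all genes), Bub1b, Kif20a, Kif4, Kif15 and Tpx2. Bub1b, a checkpoint kinase, measured 76.4, 74.6 and 71.8 CPM in WT against 124, 142 and 159 CPM in T2F3 (log2 fold 0.93 ± 0.23, adjusted p = 0.0344) (call lost in 7 of 12 leave-outs, adjusted p up to 0.0995 without WT 2). Kif4, a motor of chromosome arms, held 37.9 to 49.7 CPM in WT against 80.1 to 84.2 CPM in T2F3 (log2 fold 0.87, adjusted p = 0.0411, call lost in 9 of 12 leave-outs, adjusted p up to 0.123 without WT 1). Kif20a held 38.5 to 42.1 CPM in WT against 61.1 to 74.8 CPM in T2F3 (log2 fold 0.73, adjusted p = 0.0352, call lost in 9 of 12 leave-outs, adjusted p up to 0.12 without T2F3 1). Each T2F3 library exceeded each WT library for these motors and for Bub1b. Kif15 held 23.95 to 34.4 CPM in WT against 46.9 to 60.6 CPM in T2F3 (log2 fold 0.93, adjusted p = 0.0424, call lost in 9 of 12 leave-outs, adjusted p up to 0.134 without T2F3 1). Tpx2, which activates the Aurora A kinase, held 47.9 to 63.1 CPM in WT against 73.8 to 104 CPM in T2F3 (log2 fold 0.72, adjusted p = 0.0491, call lost in 12 of 12 leave-outs, adjusted p up to 0.157 without T2F3 3). With length and GC as offsets the mitosis median was 0.28 and none of the 5 kept its call. Of 55 tested DNA replication genes 2 rose (3.64%, near the 2.76% over all genes), with a median of 0.38 (0.19 with the offsets). Tipin, which stabilises stalled forks, measured 25.8, 24.8 and 21.4 CPM in WT against 80.1, 68.8 and 93.3 CPM in T2F3 (log2 fold 1.75 ± 0.28, adjusted p = 0.00594), and was not called with the offsets. In DNA repair 2 of 41 tested genes rose (4.88% against 2.76%). Brca1, a tumour suppressor of this process, held 61.98 to 72.4 CPM in WT against 91.7 to 147 CPM in T2F3 (log2 fold 0.84, adjusted p = 0.0437, call lost in 10 of 12 leave-outs, adjusted p up to 0.129 without WT 1).

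Nucleotide and folate synthesis genes rose in 5 of 34 tested members (14.7% against 2.76% over all genes). Of the 34, 32 had a positive difference, and the median was 0.49 (0.37 with the offsets). Impdh2, the rate-limiting enzyme of guanine nucleotide synthesis, measured 118, 117 and 92.9 CPM in WT against 233, 223 and 274 CPM in T2F3 (log2 fold 1.15 ± 0.21, adjusted p = 0.0122). Mthfd2, a mitochondrial folate enzyme, measured 8.37, 18.2 and 17.1 CPM in WT against 42.6, 40.05 and 33.3 CPM in T2F3 (log2 fold 1.41 ± 0.27, adjusted p = 0.0145) (adjusted p = 0.0572 without T2F3 1). Adsl, an enzyme of adenine nucleotide synthesis, held 53.5 to 75.9996 CPM in WT against 103 to 132 CPM in T2F3 (log2 fold 0.92, adjusted p = 0.0215, call lost in 4 of 12 leave-outs, adjusted p up to 0.0829 without T2F3 1). All 3 were higher in each T2F3 library, and the list held 1 called gene without T2F3 1. Of 41 tested MYC targets and ribosome biogenesis genes 37 had a positive difference and 3 rose (7.32% against 2.76% over all genes). Nolc1, a nucleolar phosphoprotein, measured 53.7, 80.98 and 83.5 CPM in WT against 199, 139.5 and 193 CPM in T2F3 (log2 fold 1.28 ± 0.25, adjusted p = 0.0154) (adjusted p from 0.0567 to 0.064 without WT 1 or T2F3 1). Nme1, a nucleoside diphosphate kinase, held 27.4 to 49.7 CPM in WT against 64.7 to 107 CPM in T2F3 (log2 fold 1.24, adjusted p = 0.0481, call lost in 9 of 12 leave-outs, adjusted p up to 0.165 without T2F3 1). Nhp2, a part of box H/ACA particles, held 18.5 to 32.2 CPM in WT against 37.6 to 58.6 CPM in T2F3 (log2 fold 1.03, adjusted p = 0.0429, call lost in 9 of 12 leave-outs, adjusted p up to 0.155 without T2F3 1). T2F3 2 was the lowest of the raised libraries for these 3. The median was 0.48 (0.28 with the offsets), and the count was 0 without WT 1 or T2F3 1.

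In glycolysis 2 of 33 tested genes rose and 2 fell (6.06% each, against 2.76% and 2.44% over all genes). Pgam1, phosphoglycerate mutase, measured 54.99, 51.3 and 47.3 CPM in WT against 157, 101 and 139 CPM in T2F3 (log2 fold 1.37 ± 0.20, adjusted p = 0.00361). Hk1, a hexokinase, held 214 to 359 CPM in WT against 99.7 to 150.2 CPM in T2F3 (log2 fold -1.18, adjusted p = 0.0214, adjusted p from 0.0717 to 0.0985 without WT 1, T2F3 1 or T2F3 2). Slc2a3, a glucose carrier, held 73.1 to 90.3 CPM in WT against 20.5 to 49.5 CPM in T2F3 (log2 fold -1.23, adjusted p = 0.0388, call lost in 8 of 12 leave-outs, adjusted p up to 0.126 without T2F3 1). Pgam1 was higher, and the other pair lower, in every T2F3 library. Slc2a6 rose and held 2.59 to 3.63 CPM in WT against 6.17 to 20.1 CPM in T2F3 (log2 fold 1.92, adjusted p = 0.0297, call lost in 6 of 12 leave-outs, adjusted p up to 0.109 without T2F3 2). In the citric acid cycle Sdhd held 50.3 to 91.2 CPM in WT against 118 to 183 CPM in T2F3 (log2 fold 1.04, adjusted p = 0.0451, call lost in 10 of 12 leave-outs, adjusted p up to 0.162 without T2F3 1). Dld held 11.4 to 20.6 CPM in WT against 33.7 to 39.6 CPM in T2F3 (log2 fold 1.19, adjusted p = 0.0454, call lost in 9 of 12 leave-outs, adjusted p up to 0.134 without WT 1). They were the 2 of 26 tested genes that rose (7.69% against 2.76% over all genes), and 24 of the 26 had a positive difference. The list median was 0.34, beside 0.05 over all genes. With length and GC as offsets it was 0.15, and neither gene stayed called. Among 28 tested cholesterol synthesis genes Fdps, which makes farnesyl diphosphate, measured 48.8, 26.8 and 41.8 CPM in WT against 151, 76.05 and 87.2 CPM in T2F3 (log2 fold 1.42 ± 0.30, adjusted p = 0.0192) (adjusted p from 0.0512 to 0.0825 without WT 2, WT 3 or T2F3 1), and the median was 0.52 (0.43 with the offsets). Fdps was the 1 called member of that list (3.57%, near the 2.76% over all genes). Cers6, a ceramide synthase outside these lists, measured 49.3, 53.5 and 48.4 CPM in WT against 182, 228 and 257 CPM in T2F3 (log2 fold 2.14 ± 0.19, adjusted p = 0.00016), and no library fell near the other genotype. Of 28 tested heme and iron genes 2 rose and 3 fell (7.14% and 10.7%, against 2.76% and 2.44% over all genes). The count was 2 without WT 2, T2F3 1 or T2F3 3. Tfr2, the second transferrin receptor, measured 128, 87.9 and 81.2 CPM in WT against 18.6, 15.7 and 30.0001 CPM in T2F3 (log2 fold -2.21 ± 0.32, adjusted p = 0.00361). Cp, the ferroxidase ceruloplasmin, measured 0.132, 0 and 0 CPM in WT against 29.6, 33.998 and 5.35 CPM in T2F3 (T2F3 to WT ratio 506, 95% counting interval 139.7 to 4180.5, adjusted p = 0.000788). Tfrc, the first transferrin receptor, held 56.7 to 69.04 CPM in WT against 95.4 to 117 CPM in T2F3 (log2 fold 0.83, adjusted p = 0.0187, call lost in 4 of 12 leave-outs, adjusted p up to 0.0805 without WT 2). Tfr2 fell with the erythroid sum, and Cp rose most in T2F3 1 and T2F3 2.

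Protein folding genes of the endoplasmic reticulum rose in 4 of 28 tested members and fell in 1. These are 14.3% and 3.57%, against 2.76% and 2.44% over all genes. The median was 0.62 (0.59 with the offsets), and 17 were higher without overlap (14.7% over all genes). P4hb, a disulfide isomerase, measured 361, 369 and 447 CPM in WT against 1318, 718 and 922 CPM in T2F3 (log2 fold 1.33 ± 0.30, adjusted p = 0.0269) (call lost in 4 of 12 leave-outs, adjusted p up to 0.0972 without T2F3 1). Hsp90b1, the chaperone GRP94, held 160.1 to 199 CPM in WT against 359 to 442 CPM in T2F3 (log2 fold 1.13, adjusted p = 0.0171, adjusted p from 0.0544 to 0.0589 without WT 1, WT 2 or WT 3). Pdia3 held 56.05 to 122 CPM in WT against 239 to 270.4 CPM in T2F3 (log2 fold 1.44, adjusted p = 0.0306, call lost in 6 of 12 leave-outs, adjusted p up to 0.0941 without WT 1). Pdia6 held 101 to 144 CPM in WT against 207 to 231 CPM in T2F3 (log2 fold 0.90, adjusted p = 0.0389, call lost in 7 of 12 leave-outs, adjusted p up to 0.12 without WT 1). All 4 are chaperones or isomerases and were higher in every T2F3 library. Ppp1r15a, which restores translation after stress, fell and measured 69.6, 147 and 64.5 CPM in WT against 14.6, 27.4 and 17.6 CPM in T2F3 (log2 fold -2.23 ± 0.39, adjusted p = 0.00919), again highest in WT 2. The count was 1 without WT 1, WT 2 or WT 3. Of 22 tested heat shock genes 3 rose (13.6% against 2.76% over all genes), the mitochondrial pair Hspd1 and Hspe1 and the cytosolic Hspa4. Hspd1 held 102 to 115 CPM in WT against 152 to 228 CPM in T2F3 (log2 fold 0.83, adjusted p = 0.0246, call lost in 5 of 12 leave-outs, adjusted p up to 0.0948 without T2F3 1). Hspe1 held 23.8 to 27.2 CPM in WT against 38.04 to 73.5 CPM in T2F3 (log2 fold 1.16, adjusted p = 0.0312, call lost in 6 of 12 leave-outs, adjusted p up to 0.125 without T2F3 1). Hspa4 held 191 to 221 CPM in WT against 309 to 352 CPM in T2F3 (log2 fold 0.68, adjusted p = 0.0454, call lost in 11 of 12 leave-outs, adjusted p up to 0.125 without T2F3 3). With the offsets the list median moved from 0.57 to 0.38 and none of the 3 kept its call.

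Antioxidant genes rose in 4 of 36 tested members (11.1% against 2.76% over all genes). Prdx1, a peroxiredoxin, held 27.6 to 61.5 CPM in WT against 81.01 to 145 CPM in T2F3 (log2 fold 1.16, adjusted p = 0.0429, call lost in 10 of 12 leave-outs, adjusted p up to 0.16 without T2F3 1). G6pdx, the first enzyme of the pentose phosphate path, held 53.7 to 68.02 CPM in WT against 114 to 136 CPM in T2F3 (log2 fold 1.03, adjusted p = 0.0486, call lost in 9 of 12 leave-outs, adjusted p up to 0.147 without WT 1). Taldo1, a later enzyme of that path, held 138 to 201 CPM in WT against 297 to 452 CPM in T2F3 (log2 fold 1.05, adjusted p = 0.0433, call lost in 10 of 12 leave-outs, adjusted p up to 0.153 without T2F3 1). The list median went from 0.23 to -0.01 with the offsets (with single libraries left out, 0.04 without T2F3 1 and 0.38 without T2F3 2), and none of the 4 kept its call. Of 42 tested lysosome genes 4 rose and 1 fell (9.52% and 2.38%, against 2.76% and 2.44% over all genes). Their median was 0.17 (0.05 with the offsets), and the count was 2 without WT 3, T2F3 1 or T2F3 2. Gusb, beta-glucuronidase, measured 132, 199 and 190.3 CPM in WT against 447, 463 and 419 CPM in T2F3 (log2 fold 1.35 ± 0.25, adjusted p = 0.0112). Ctsf, cathepsin F, measured 34.4, 11.6 and 21.1 CPM in WT against 2.35, 1.502 and 3.74 CPM in T2F3 (log2 fold -3.13 ± 0.53, adjusted p = 0.00802). Gusb rose and Ctsf fell in all T2F3 libraries. Ctsc, the protease that activates granule enzymes, rose and held 23.8 to 29.5 CPM in WT against 53.95 to 66.7 CPM in T2F3 (log2 fold 1.203, adjusted p = 0.0246, call lost in 5 of 12 leave-outs, adjusted p up to 0.094 without T2F3 1). Of 31 tested BCL2 family and caspase genes 4 rose (12.9% against 2.76% over all genes). Diablo, a mitochondrial protein that frees caspases, measured 17.9, 29.8 and 20.7 CPM in WT against 50.2, 48.1 and 53.2 CPM in T2F3 (log2 fold 1.14 ± 0.22, adjusted p = 0.013). Bid, a pro-death protein, held 23.9 to 38.5 CPM in WT against 54.7 to 64.3 CPM in T2F3 (log2 fold 0.98, adjusted p = 0.0499, call lost in 10 of 12 leave-outs, adjusted p up to 0.152 without WT 1). The other 2 are the near-identical copies BCL2A1A and Bcl2a1b, whose reads cannot be assigned with certainty. BCL2A1A held 0 CPM in every WT library against 0.412 to 6.26 CPM in T2F3 (at least 17.9-fold higher, adjusted p = 0.0389, call lost in 6 of 12 leave-outs, adjusted p up to 0.108 without T2F3 1). Bcl2a1b held 0 CPM in every WT library against 0.206 to 3.27 CPM in T2F3 (at least 8.39-fold higher, adjusted p = 0.0488, call lost in 11 of 12 leave-outs, adjusted p up to 0.146 without T2F3 1).

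Among chromatin genes, 1 gene of DNA methylation rose (4.17% of its list, against 2.76% over all genes) and 5 Polycomb and trithorax genes fell. Of 24 tested DNA methylation and demethylation genes Hells, a remodelling helicase, rose and measured 42.4, 52.6 and 52.2 CPM in WT against 77.6, 101 and 116 CPM in T2F3 (log2 fold 1.00 ± 0.20, adjusted p = 0.0167) (adjusted p from 0.0526 to 0.0617 without WT 1, WT 2 or T2F3 3). Dnmt3a, the de novo methyltransferase, did not pass at 127, 169.9 and 155 CPM against 70.5, 113 and 107 CPM (log2 fold -0.64, adjusted p = 0.116). Of 51 tested Polycomb and trithorax genes 5 fell (9.8% against 2.44% over all genes) and 19 were lower without overlap (13.3% over all genes). Kdm6b, a demethylase of histone H3 lysine 27, measured 94.5, 117 and 79.9 CPM in WT against 22.3, 42.3 and 28.97 CPM in T2F3 (log2 fold -1.64 ± 0.29, adjusted p = 0.00994). Kdm5b, a demethylase of lysine 4, measured 104, 92.6 and 104 CPM in WT against 36.8, 47.8 and 47.2 CPM in T2F3 (log2 fold -1.19 ± 0.22, adjusted p = 0.0128) (adjusted p = 0.064 without T2F3 1). Kmt2a, the methyltransferase MLL, measured 639, 601 and 469 CPM in WT against 125, 296 and 284 CPM in T2F3 (log2 fold -1.28 ± 0.32, adjusted p = 0.0374) (call lost in 9 of 12 leave-outs, adjusted p up to 0.105 without WT 1). Setd1b, another methyltransferase, held 102 to 136 CPM in WT against 38.2 to 68.997 CPM in T2F3 (log2 fold -1.07, adjusted p = 0.0271, call lost in 4 of 12 leave-outs, adjusted p up to 0.103 without T2F3 1). T2F3 1 was the lowest library for all 4. Cbx6, a Polycomb reader, held 143 to 179 CPM in WT against 77.4 to 113 CPM in T2F3 (log2 fold -0.75, adjusted p = 0.0388, call lost in 8 of 12 leave-outs, adjusted p up to 0.144 without T2F3 1). These are long transcripts, and with length and GC as offsets the list median moved from -0.40 to -0.24 and 2 members, Kdm6b and Kmt2a, stayed called. The count was 1 without T2F3 1. Of 19 tested imprinted genes 2 fell (10.5% against 2.44% over all genes). Grb10, an adaptor that dampens insulin and growth factor receptors, measured 27.04, 27.1 and 32.9 CPM in WT against 0.152, 1.59 and 2.55 CPM in T2F3 (log2 fold -4.29 ± 0.64, adjusted p = 0.00391). Ndn, necdin, measured 5.87, 1.23 and 10.1 CPM in WT against 0, 0.0834 and 0 CPM in T2F3 (T2F3 to WT ratio 0.00614, 95% counting interval 0.000739 to 0.0224, adjusted p = 0.0498) (call lost in 10 of 12 leave-outs, adjusted p up to 0.171 without T2F3 1), and its level in T2F3 rested on 2 counts in all.

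The genes with the greatest rise were at or near 0 in WT. Gdf10, a relative of the BMPs, measured 0, 0 and 0 CPM in WT against 51.6, 56.1 and 19.9 CPM in T2F3 (at least 217-fold higher, adjusted p = 0.00272). Snx22, a sorting nexin, measured 0, 0.056 and 0 CPM in WT against 39.8, 69.6 and 2.72 CPM in T2F3 (T2F3 to WT ratio 1711, 95% counting interval 307 to 67604, adjusted p = 0.00781). Klrk1, the receptor NKG2D, measured 0, 0 and 0 CPM in WT against 8.74, 13.6 and 0.741 CPM in T2F3 (at least 39.3-fold higher, adjusted p = 0.0139). In these 3 and in Phf11a, as in Itgae, Xcr1 and Tlr11, T2F3 3 was the lowest T2F3 library. Phf11a measured 0, 0.056 and 0 CPM in WT against 15.6, 36.7 and 1.73 CPM in T2F3 (T2F3 to WT ratio 853, 95% counting interval 153 to 33727, adjusted p = 0.00702). Tshz2, a zinc finger factor, measured 0.0659, 0 and 0 CPM in WT against 9.57, 12.3 and 23.6 CPM in T2F3 (T2F3 to WT ratio 755, 95% counting interval 135 to 29837, adjusted p = 0.00161), and there T2F3 3 was the highest. Over the 103 core genes that rose, T2F3 3 was the lowest T2F3 library for 52, T2F3 2 for 27 and T2F3 1 for 24. Other genes of this size lost their call in leave-outs: Tmem178 (call lost in 5 of 12 leave-outs, adjusted p up to 0.0755 without WT 1), Ppef2 (call lost in 5 of 12 leave-outs, adjusted p up to 0.076 without T2F3 1), Scimp (call lost in 5 of 12 leave-outs, adjusted p up to 0.082 without T2F3 1), Adora3 (adjusted p from 0.0524 to 0.0565 without WT 1 or WT 2), Tnfsf11 (call lost in 5 of 12 leave-outs, adjusted p up to 0.0809 without WT 2) and Gldc (call lost in 9 of 12 leave-outs, adjusted p up to 0.121 without WT 1). Gldc, a glycine-cleaving enzyme, was at 0 in every WT library, and its T2F3 levels were 7.22, 3.09 and 86.3 CPM, so that T2F3 3 carried most of the signal.

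Genes with the greatest fall were all but silent in T2F3. Car1, the erythroid carbonic anhydrase, measured 116, 46.5 and 96.4 CPM in WT against 0, 1.21 and 0.165 CPM in T2F3 (log2 fold -7.42 ± 1.14, adjusted p = 0.0045). Ces2g, a carboxylesterase, measured 41.1, 39.8 and 64.6 CPM in WT against 0.608, 0.417 and 0.123 CPM in T2F3 (log2 fold -7.04 ± 0.96, adjusted p = 0.00272). Slc16a11, a carrier of monocarboxylates, measured 5.74, 5.88 and 8.06 CPM in WT against 0, 0 and 0 CPM in T2F3 (at least 41.3-fold lower, adjusted p = 0.0139). Ces2g and Slc16a11 were even across WT, whereas Prss50, a serine protease, measured 13.5, 1.4 and 3.99 CPM in WT against 0, 0 and 0 CPM in T2F3 (at least 39.7-fold lower, adjusted p = 0.00978), with WT 1 highest. Pde10a, which breaks down cyclic nucleotides, measured 12.001, 5.15 and 4.36 CPM in WT against 0, 0.0417 and 0.0823 CPM in T2F3 (T2F3 to WT ratio 0.00683, 95% counting interval 0.001401 to 0.0201, adjusted p = 0.00548). Rag1, a recombinase of lymphoid progenitors, measured 111, 5.94 and 25.6 CPM in WT against 0, 0 and 0.123 CPM in T2F3 (T2F3 to WT ratio 0.00106, 95% counting interval 0.000219 to 0.00311, adjusted p = 0.0196) (call lost in 4 of 12 leave-outs, adjusted p up to 0.091 without T2F3 1), with WT 1 highest, the library with the high B cell sum. Among the genes of smallest p, Gcnt2, a branching sugar transferase, measured 697, 529.8 and 389 CPM in WT against 60.1, 82.3 and 85.5 CPM in T2F3 (log2 fold -2.83 ± 0.32, adjusted p = 0.000958). Mc5r, a melanocortin receptor, measured 60.7, 73.5 and 64.2 CPM in WT against 9.57, 8.68 and 14.5 CPM in T2F3 (log2 fold -2.60 ± 0.30, adjusted p = 0.000958). Rapgef3, the cyclic AMP sensor EPAC1, measured 15.4, 21.1 and 15.97 CPM in WT against 3.11, 2.503 and 3.13 CPM in T2F3 (log2 fold -2.58 ± 0.33, adjusted p = 0.00173). Dach1, a transcriptional co-regulator, measured 195, 133 and 75.2 CPM in WT against 0.912, 9.01 and 6.58 CPM in T2F3 (log2 fold -4.58 ± 0.61, adjusted p = 0.00258). These 4 did not overlap between genotypes, which the rule that chose genes by smallest p required.

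**Figure D5:**
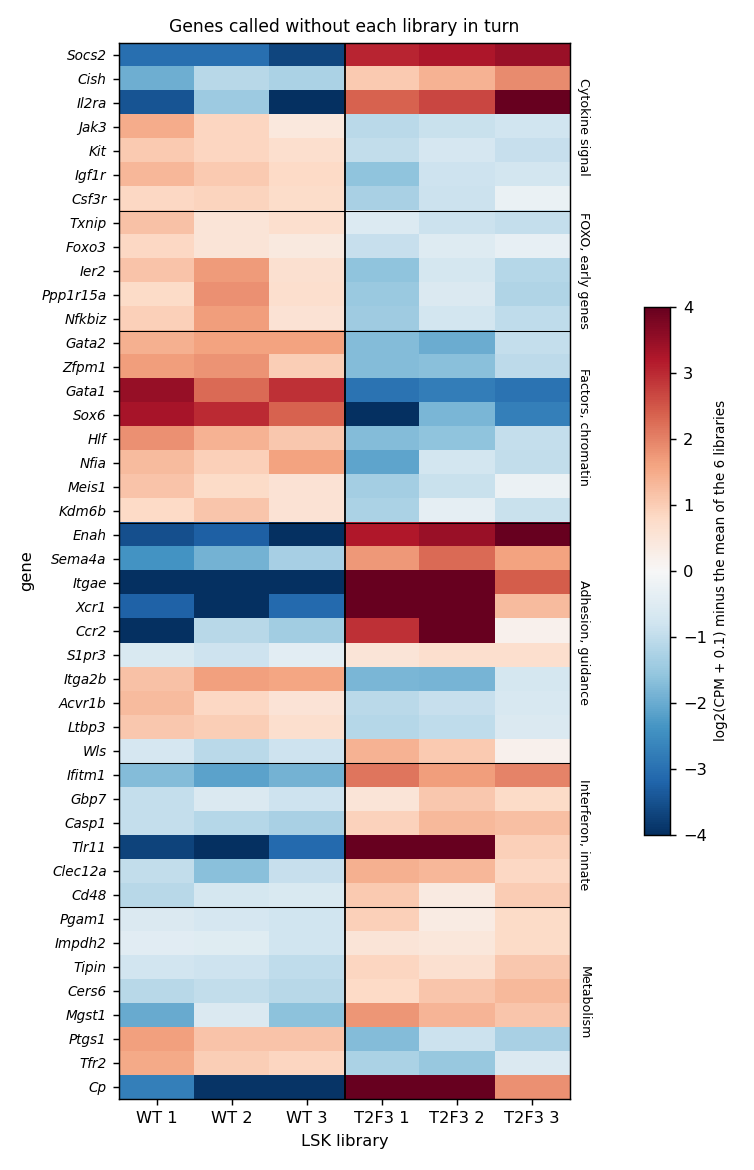
Log2 CPM (with 0.1 added) of 44 genes called without each library in turn, minus the mean of the 6 LSK libraries, with rows grouped by role and the scale limited to 4 in either direction. Red marks a level above the mean and blue below, and Itgae, Xcr1, Ccr2 and Tlr11 are weaker in T2F3 3 than in the other T2F3 libraries while Socs2, Enah and Casp1 are not.

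In the 5 lists not yet described few genes passed. The share called lower was 3.57% for p53 targets and 2.94% for ATF4 and amino acid genes, near the 2.44% over all genes. It was 10.0% for RGS proteins, from 1 gene. Of the fatty acid genes 2.63% were called higher, near the 2.76% over all genes. Of 28 tested p53 targets Trp53inp1, an autophagy gene, fell and held 26.9 to 60.5 CPM in WT against 10.5 to 15.6 CPM in T2F3 (log2 fold -1.65, adjusted p = 0.0294, call lost in 5 of 12 leave-outs, adjusted p up to 0.12 without T2F3 1). Of 34 tested ATF4 and amino acid genes Vldlr, a lipoprotein receptor that also stands in the stem cell list, fell and held 35.3 to 59.3 CPM in WT against 6.26 to 8.601 CPM in T2F3 (log2 fold -2.76, adjusted p = 0.0186, call lost in 4 of 12 leave-outs, adjusted p up to 0.0887 without T2F3 1). Rgs1, a brake on G protein signals, was the 1 of 10 tested RGS proteins that fell, and held 12.9 to 39.5 CPM in WT against 0.684 to 2.54 CPM in T2F3 (log2 fold -4.24, adjusted p = 0.0373, call lost in 9 of 12 leave-outs, adjusted p up to 0.144 without T2F3 1). Cd36, a fatty acid carrier, was the 1 of 38 tested genes of fatty acid synthesis and oxidation that rose, and held 0 to 0.112 CPM in WT against 0.741 to 23.1 CPM in T2F3 (T2F3 to WT ratio 272, 95% counting interval 74.9 to 2247, adjusted p = 0.0149, adjusted p = 0.0542 without WT 1), with T2F3 3 lowest of the raised libraries. The 8 tested NADPH oxidase genes did not pass in edgeR, with the smallest p for Rap1a (log2 fold 0.76, adjusted p = 0.0915), and their median was 0.61 (0.41 with the offsets).

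The effect of genotype in LSK was set against that in GMP by the difference of the effects. In this test 4 of 16042 genes (0.0249%) passed, Enah, Cers6, Sema4a and Mcpt8. For Enah the difference of the log2 effects, LSK minus GMP, was 4.16 ± 0.55 (adjusted p = 0.0389), with a log2 difference between genotypes of 3.49 in GMP (adjusted p = 0.000952). For Cers6 it was 1.86 ± 0.26 (adjusted p = 0.047), beside 0.28 in GMP (adjusted p = 0.577). For Sema4a it was 3.09 ± 0.45 (adjusted p = 0.047), beside 0.66 in GMP (adjusted p = 0.369). These 3 rose more in LSK. Mcpt8, a basophil protease named after its values were seen, had a difference of 4.63 ± 0.62 (adjusted p = 0.0389), beside -2.16 in GMP (adjusted p = 0.0323). Its log2 difference in LSK was thus positive, unlike the mast cell, basophil and eosinophil sum, which was lower in T2F3 LSK. LSK and GMP libraries of the same number shared deviations from their groups, and with the shared title number as a block 0 genes passed in edgeR, while 1725 had an unadjusted p under 0.05 and 190 passed in DESeq2 without the block. Without WT 2, each of the T2F3 LSK libraries, WT GMP 1, WT GMP 2, T2F3 GMP 1 or T2F3 GMP 2 the count was also 0, and it was 1 without WT 1, WT 3 or T2F3 GMP 3 and 10 without WT GMP 3. Both comparisons used separate wild-type libraries. For Kit the GMP levels were 396, 403 and 554 CPM in WT and 237, 217 and 231 CPM in T2F3 (adjusted p = 0.0431), so that Kit was lower in T2F3 in both populations.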

How the data were processed

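Gene counts for 12 libraries were deposited by the authors as raw counts, and the submitters' processing notes name cutadapt (1.2rc2), TopHat2 (2), BWA (0.5.9), Picard and HTSeq with the mouse build mm9; no source here names the annotation or strand setting, and antisense partners therefore cannot be told apart. Samples were grouped by their titles, and 3 columns of the table that match no sample were not used. Of 21497 entries, 19939 identifiers were named from GENCODE vM21 and 1558 kept the deposited name. Genes were tested with edgeR 4.0.16 (R 4.3.3) after its filterByExpr filter (minimum count 10) and TMM scaling, by a quasi-likelihood F-test over all 12 libraries (8 residual degrees of freedom) with Benjamini-Hochberg adjustment over 16042 genes. Values are counts scaled to TMM library sizes (CPM), given with a standard error of the log2 difference and 3 libraries a group. Counting intervals and floors cover counting error only. Library totals of 13316474 to 23536258 counts limit genes near 0. The procedure was tested on simulated counts.

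The lists (42 of pathways, 10 of cell types), their members and the genes to name were chosen with earlier results of these data known. The rule names Tet2, Flt3, Kit and Ly6a. It names the 15 called genes with the largest change and the 10 of smallest p in each direction. Both sets came only from genes at 5 CPM or more without overlap between genotypes. It also names up to 6 called members of each list at 1 CPM or more, or the 3 of smallest p where fewer were called. A part of these 202 genes is printed, and some called members are not reported here. Unnamed gene models, small RNA genes, pseudogenes and sex-linked genes were not named. Alternatives were other scalings, filters and tools (limma 3.58.1, DESeq2 1.42.0), each library left out, blocks, covariates and offsets. LSK and GMP libraries of 1 genotype whose titles share a number deviated together from their group means (correlations of 0.140, 0.118 and 0.145 in WT and 0.295, 0.306 and 0.433 in T2F3), so the shared title number was a block in a second test of the difference. Promoter windows came from RefSeq (GRCm38.p6) and were matched by symbol, and no coordinate was converted from mm9.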

Additional observations from a re-analysis of the deposited data

Results flagged for a closer look

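The genotype effect differed between LSK and GMP, by the interaction test of edgeR, for 3 named genes whose effect was larger in LSK. The difference of the log2 effects was 4.16 for Enah, 1.86 for Cers6 and 3.09 for Sema4a. With the shared title number as a block none of the 3 passed.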

How the results depend on the processing

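The count of 834 called genes (443 higher, 391 lower) kept within 1.5 times with other size factors (817), library sizes without small RNA and other abundant classes (838), no filter (703), a filter of 5 CPM (880), both WT replicate 1 libraries left out (735), the small RNA share as a covariate (805) and length and GC as offsets (560, of which 276 higher). It was 474 (219 higher, 255 lower) from only the 6 LSK libraries, 18 (13 and 5) when the code was a block, 1339 (721 lower) with limma-voom, 1919 (870 and 1049) with DESeq2, 1310 (661 lower) in edgeR without its legacy setting and 136 (83 and 53) without both T2F3 replicate 1 libraries. Leaving out 1 library at a time gave 229 to 1094 called genes, 146 to 545 of them higher and 83 to 549 lower. The cause of these shifts was not tested, beyond the fewer libraries in the smaller fits. The 4 genes of the LSK and GMP difference became 7 at 5 CPM, 0 with the code as a block, 23 with limma-voom, 190 with DESeq2, 9 without the legacy setting, 10 with the covariate, 14 with the offsets, 1 without both WT replicate 1 libraries, 0 without both T2F3 replicate 1 libraries, 0 with the shared title number as a block and 0 to 10 with 1 library left out. No named gene reversed its direction in any alternative run. The offsets, the covariate, the legacy setting and that block were chosen after seeing the data.

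Equal replicate numbers do not pair WT with T2F3 mice: deviations of same-numbered LSK libraries correlated at 0.0153, 0.0903 and -0.0117. With the replicate number as a block 907 genes were called (472 higher, 435 lower), and of the 202 genes named by rule 18 lost and 4 gained a call. Genes near the floor of 3 counts a library limit any statement on absence.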
